A study of Bos taurus with 16 samples.

Results

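CC chemokines are small secreted proteins that attract leukocytes, and CC receptors are the cell surface proteins that bind them. The genes described here are the chemokines CCL2, CCL3, CCL4, CCL5, CCL8 and CCL20 and the receptors CCR1, CCR2 and CCR7. Probes were taken by name, as every probe on the array whose gene name in the scanner files equals one of these 9 symbols. Earlier results of these data were known when the genes and lists were chosen. The shares of all probes given beside their counts are therefore only a description. This gave 22 of the 43653 probes that are not controls, and 16 of the 22, from 8 of the 9 genes, rose well above background on 4 or more of the 16 arrays and entered the tests.

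The tissue was endometrium, the inner layer of the uterus, and the animals were 4 fertile cows that had calved. Biopsy forceps took several pieces from the uterine horns of each cow at nominal days 10, 30, 50 and 100, and the labels place the actual sampling on days 9 to 10, then 29 to 30, then 49 to 51, then 99 to 100. Each cow and time has 1 array, so each time has 4 arrays, with no treatment in the labels. All biopsies of a cow were hybridised on 1 slide, and each time took the same position on every slide, so time and slide position cannot be told apart. The deposited files hold the brightness of each spot. A level below is the log2 processed signal of a probe minus the percentile 75 of its array, so 0 is a fairly bright spot and values near -8 are background. A probe's level depends on its sequence, so levels are compared between arrays and not between probes.

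Of 6 endometrial markers with a named probe, the progesterone receptor PGR and the transcription factors HOXA10 and MSX1 were well above background on all 16 arrays. The oestrogen receptor ESR1 was so on 14, the gland secretion SERPINA14 on 12, with 2 of them at day 10, and the gland transcription factor FOXA2 on 11, with 1 of them at day 10. Arrays differed in brightness, with median processed signals between 51.1 and 154, and cows 3 and 2 at day 100 had the dimmest arrays (51.1 and 54.8). The biopsies also differed in tissue make-up. In cow 2 at day 100 the smooth muscle marker list stood at 2.19 and the epithelial list at -3.20, and in cow 1 at day 100 they stood at -3.77 and 2.65. These list levels are means over the genes of a list, in log2 units relative to all 16 arrays.

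CC chemokines are named for a pair of adjacent cysteines near the start of the mature protein. They signal through receptors with membrane-spanning helices that couple to G proteins, and many ligands share a receptor. CCL3, CCL4 and CCL5 are inflammatory chemokines of macrophages and lymphocytes, CCL2 and CCL8 attract monocytes, and CCL20 is made by epithelia and draws dendritic and lymphoid cells. CCR1 is carried by monocytes, macrophages and neutrophils, CCR2 is the monocyte receptor for CCL2, and CCR7 guides dendritic cells and T cells to lymph nodes. In the uterus after calving, leukocytes enter the endometrium while tissue debris and bacteria are cleared.

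The probes decide what could be measured, so those on which the results turn are shown first, read 5′ to 3′ from the scanner files. The array carries 3 probes for CCL3. In probe A_73_119009 the capitals mark TGCTGC, which codes for adjacent cysteines when read from the first base of the probe. This frame and 1 other have no stop codon in the probe, and which frame is translated was not tested. Of all 43653 probes, 2.77% hold TGCTGC on the printed strand in any frame and 4.98% on either strand. The second line is the other CCL3 probe that was tested, and the third was not well above background on any array.
CCL3 A_73_119009: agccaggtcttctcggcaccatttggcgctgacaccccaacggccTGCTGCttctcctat
CCL3 A_73_P102451: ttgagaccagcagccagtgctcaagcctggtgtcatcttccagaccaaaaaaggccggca
CCL3 A_73_P121271: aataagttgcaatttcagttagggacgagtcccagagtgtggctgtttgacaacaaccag

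Positions are those of the file headers, on bovine build HGSC Btau_3.1, and exons and UTRs were not analysed here. The 60 bases of A_73_119009 are spread over chr19:13822185-13823099, 915 bases, and those of A_73_P102451 over chr19:13823140-13823502, 363 bases, so the listed positions of both contain a gap, as those of a probe across an exon junction would. A_73_P121271 is listed at chr19:13823679-13823738 and runs in the direction opposite to the other CCL3 probes.

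For CCL8, CCL4 and CCR1 the first 30 of the 60 bases identify the probes whose differences passed the test.
CCL8 A_73_116397: cttaggaaatcagtgctcctgtaagtggat
CCL8 A_73_P051851: ggaaaatcttatttatttcttcccaacctt
CCL4 A_73_106624: tccctctgctactgtgaatacatggataat
CCL4 A_73_P102796: cctctccatgctcacgactcccctcagcag
CCR1 A_73_110140: ttactcttctactattgttgtctttaagca
CCR1 A_73_P102801: tcttctttctcttttggacgccctataatc

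The CCL8 probes lie at chr19:15404030-15404089 and chr19:15404340-15404399, and the CCL4 probes at chr19:13801571-13801630 and chr19:13801734-13801793. The CCR1 probes lie at chr22:54591448-54591507 and chr22:54589884-54589943. None of the 22 probes shares a run of 20 bases with a probe of a gene outside those described here. Runs shared between the genes described here were not searched. A similar probe whose mismatches break every such run would also not be found. Cross-hybridisation to other transcripts was not tested.

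The comparisons ask how expression differed between the 4 times after calving, with each cow compared with itself. CCL3, CCL4, CCL8 and CCR1 were lower after day 10, while no tested probe of CCL2, CCL5, CCL20 or CCR7 passed the test in any comparison. Between days 10 and 30, 5 of the 16 probes, of CCL3, CCL8 and CCR1, were called lower and 0 higher, against 0.407% and 0.0121% of all 33182 tested probes. Between days 10 and 50, 5 of 16, of CCL3, CCL4 and CCR1, were called lower and 0 higher, against 1.05% and 0.597% of all probes. Between days 10 and 100, 8 of 16, of CCL3, CCL4, CCL8 and CCR1, were called lower and 0 higher, against 3.14% and 1.46%. CCL3 probe A_73_P102451 and CCR1 probe A_73_P102801 were well above background on all 4 day 10 arrays and only 3 later ones, so they entered the tests through day 10, the group where they were high. With the stricter filter of 8 arrays both left the tests, and 4, 4 and 6 of 13 probes were called at days 30, 50 and 100. The shares of all probes above belong to the filter of 4 arrays, so these counts have no share beside them. A call is a limma two-sided adjusted p below 0.05 after Benjamini-Hochberg adjustment over all tested probes. In whole tissue, fewer cells of a type and less RNA per cell cannot be told apart.

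The 3 comparisons share the day 10 arrays, so they are not independent. The median log2 difference of the 16 probes was -2.04, -1.64 and -1.79 at days 30, 50 and 100, beside -0.01, -0.03 and -0.07 for all tested probes. Among the later times no probe of these genes was called by limma, and 0% of all probes were called between days 30 and 50, 0% between days 30 and 100, and 0% between days 50 and 100. At an unadjusted p below 0.05 there were 3, 0 and 0 probes of these genes in those comparisons, beside 9.32%, 12.8% and 3.14% of all tested probes. The F test over the 4 times called 3 of the 16 probes, both tested CCL3 probes and CCR1 probe A_73_110140, against 1.03% of all probes. With the filter of 8 arrays it called 2 of 13, again without a share of all probes beside the count. On 4 of the 16, both tested CCL3 and both CCR1 probes, all 4 day 10 arrays lay above all 12 later arrays, a pattern seen in 1.51% of all tested probes. For A_73_P102451 and A_73_P102801 this order is favoured by the filter and is only a description.

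**Figure D1:**
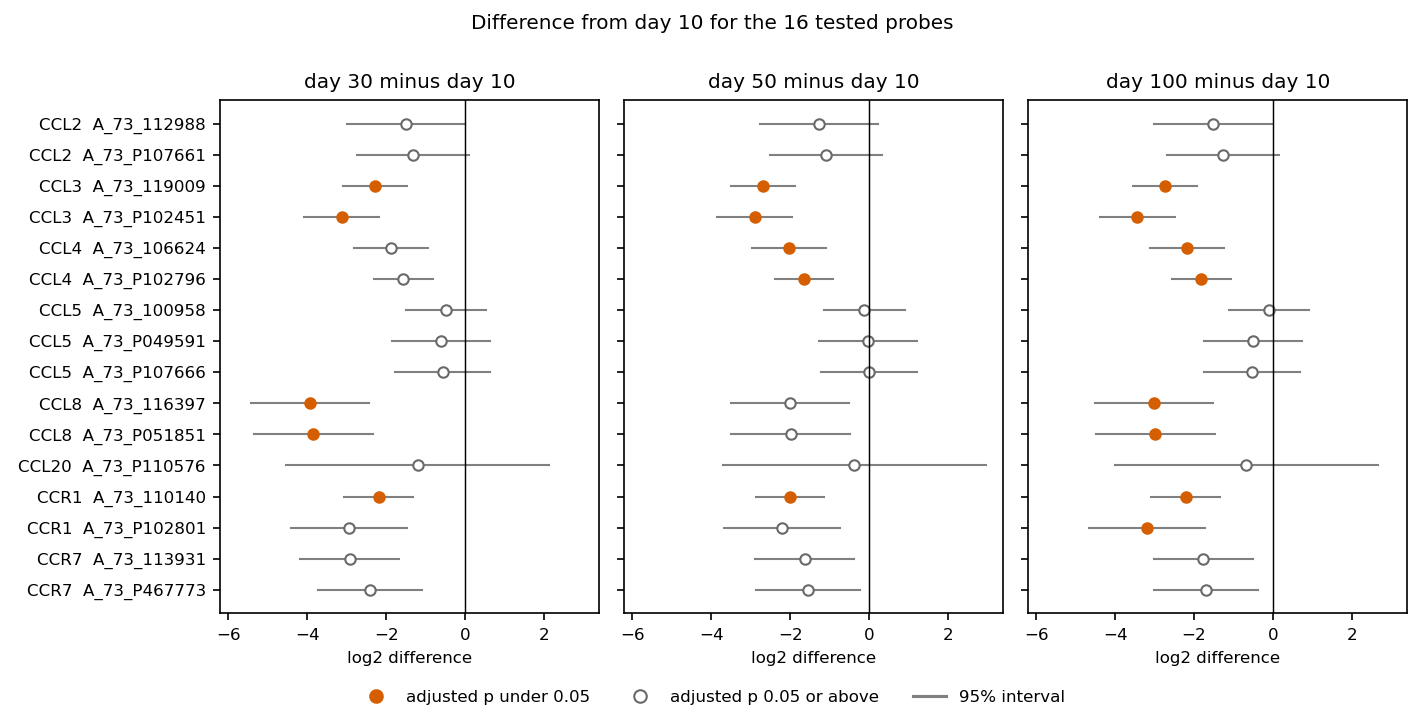
Log2 difference of each of the 16 tested probes from day 10 to days 30, 50 and 100 (horizontal axis), with its 95% interval from limma over 4 cows. Filled points passed the adjusted p of 0.05 (5, 5 and 8 probes) and open points did not. The CCL3 probes were called in all 3 panels, and the CCL5 intervals include 0 throughout.

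CCL3, also called MIP-1 alpha, binds CCR1 and is made by activated macrophages. On probe A_73_119009 the levels at day 10 were -2.59, -3.03, -1.69 and -3.08 in cows 1 to 4. They were -5.64, -4.73, -3.998 and -5.14 at day 30, -5.30, -5.83, -5.26 and -4.77 at day 50, and -5.06, -5.05, -5.42 and -5.85 at day 100. Every day 10 array was above every later array, and the later times overlapped one another. The mean went from -2.60 ± 0.64 to -4.88 ± 0.69, -5.29 ± 0.43 and -5.34 ± 0.38 (SD, n = 4). The limma differences from day 10 were -2.28 ± 0.37 at day 30, -2.69 ± 0.37 at day 50 and -2.74 ± 0.37 at day 100 (SE), with adjusted p of 0.0296, 0.0100 and 0.00616. CCL3 was lower in 4 of 4 cows each time, by 4.85-fold, 6.44-fold and 6.70-fold. The day 30 array of cow 1 was not well above background on this probe. These folds hold only for the background correction used here. With normexp correction, described below, the day 100 difference was -0.999.

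The second CCL3 probe, A_73_P102451, had the same pattern close to background. It was well above background on 4 of 4 arrays at day 10, 2 at day 30, 1 at day 50 and 0 at day 100. Day 10 levels were -4.42, -4.63, -3.06 and -4.17 in cows 1 to 4, and the 12 later levels lay between -8.37 and -5.86. At day 100, CCL3 by this probe was lower than at day 10 by at least 6.47-fold. For this bound the dim group was set at the lowest level well above background on each array. Where the probe's own level was higher, that level was used. The bound holds only for the background correction used here, since with normexp correction, described below, the difference was -0.17. The measured means were -4.07 at day 10 and -7.51 at day 100, with a limma adjusted p of 0.00464. The probe entered the tests through day 10, where it was high, so its p values are only a description. Differences at days 30 and 50 were -3.12 ± 0.43 and -2.90 ± 0.43 (SE, adjusted p 0.0147 and 0.0157). Across the 16 arrays, after each cow's own mean was removed, the tested CCL3 probes correlated at r = 0.94, as a description over arrays that share cows.

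CCL4, or MIP-1 beta, is an inflammatory chemokine closely related to CCL3. On probe A_73_106624 day 10 levels were -0.71, -2.93, -1.08 and -1.15 in cows 1 to 4. Levels at day 30 were -3.13, -3.52, -3.03 and -3.70, at day 50 they were -2.77, -3.79, -3.63 and -3.82, and at day 100 they were -2.50, -3.65, -3.28 and -5.16. Cow 2 was the low animal at day 10, and its level there overlapped the ranges of days 50 and 100 but not that of day 30. All 4 cows were nevertheless lower at each later time than at their own day 10.

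Mean CCL4 was -1.46 ± 1.00 at day 10 and -3.34 ± 0.32, -3.50 ± 0.50 and -3.65 ± 1.12 at days 30, 50 and 100 (SD, n = 4). The difference from day 10 was -2.04 ± 0.43 at day 50 and -2.18 ± 0.43 at day 100 (SE, limma adjusted p 0.0430 and 0.0223). At day 30 it was -1.88 ± 0.43 and did not pass, with an adjusted p of 0.0883 and a 95% interval from -2.82 to -0.94. Probe A_73_P102796 gave -1.56 ± 0.34, -1.65 ± 0.34 and -1.82 ± 0.34 at days 30, 50 and 100 (SE, adjusted p 0.0755, 0.0405 and 0.0187), and its r with the first CCL4 probe was 0.98 over the 16 arrays. The remaining CCL4 probe, A_73_P137086, was not well above background on any array.

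CCL8, or MCP-2, is a monocyte attractant related to CCL2. Its levels on probe A_73_116397 were 2.13, 0.09, 1.41 and 2.71 in cows 1 to 4 at day 10 and -3.62, -1.62, -1.80 and -2.37 at day 30. At day 50 they were 0.20, -1.69, 0.32 and -0.51, and at day 100 they were -1.57, -2.92, 0.71 and -1.92. Day 30 lay wholly below day 10, whereas cow 2 at day 10 lay below cows 1 and 3 at day 50 and below cow 3 at day 100, so those times overlapped day 10. Mean CCL8 went from 1.59 ± 1.13 at day 10 to -2.35 ± 0.90 at day 30, -0.42 ± 0.92 at day 50 and -1.43 ± 1.54 at day 100 (SD, n = 4).

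CCL8 fell by 3.94 ± 0.68 on the log2 scale from day 10 to day 30 (SE, limma adjusted p = 0.0356), or 15.3-fold, which was the largest of the 18 differences called for these genes. At day 100 it was lower than at day 10 by a difference of -3.01 ± 0.68 (adjusted p 0.0340), or 8.06-fold. At day 50 the difference was -2.01 ± 0.68 and did not pass (adjusted p 0.150, 95% interval from -3.50 to -0.51). All 4 cows were lower at each later time than at day 10. From day 30 to day 50 CCL8 differed by 1.93 ± 0.68, higher at day 50 in 3 of 4 cows, and did not pass (unadjusted p = 0.0159, limma adjusted p = 0.484). Probe A_73_P051851 gave -3.84, -1.99 and -2.98 at days 30, 50 and 100 (adjusted p 0.0425, 0.157 and 0.0365), with r = 1.00 to the first.

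CCL2, or MCP-1, is the main ligand of CCR2. On probe A_73_112988, well above background on all 16 arrays, levels at day 10 were 1.82, 0.54, 1.64 and 2.73 in cows 1 to 4. They were -0.65, 0.74, 0.78 and -0.11 at day 30, 0.77, 0.24, -0.03 and 0.70 at day 50, and -2.003, 1.96, 0.37 and 0.31 at day 100. Cow 2 did not follow the others, with its lowest CCL2 at day 50 and its highest at day 100. The differences from day 10 were -1.49, -1.26 and -1.52, each ± 0.68 (SE), with limma adjusted p of 0.357, 0.3499 and 0.188. Their 95% intervals ran from -2.99 to 0.00, from -2.76 to 0.23 and from -3.02 to -0.02, so a several-fold fall and little change are both inside them. The other CCL2 probe, A_73_P107661, gave -1.33, -1.10 and -1.26 (r = 0.99 with the first over 16 arrays).

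CCL5, or RANTES, is made largely by T and NK cells and shares CCR1 with CCL3. Levels on probe A_73_100958 were 1.05, -2.07, 0.34 and 1.17 in cows 1 to 4 at day 10, and -0.21, -1.19, 0.43 and -0.46 at day 30. At day 50 they were 0.08, -0.61, 0.26 and 0.28, and at day 100 they were 0.79, -2.45, 1.13 and 0.62. On this probe cow 2 was the lowest at every time, and all 4 times overlapped. Means were 0.12 ± 1.51, -0.36 ± 0.67, 0.00 ± 0.42 and 0.02 ± 1.66 (SD, n = 4). The differences from day 10 were -0.48, -0.12 and -0.10, each ± 0.47 (SE, limma adjusted p 0.664, 0.922 and 0.914), with 95% intervals from -1.50 to 0.54, from -1.14 to 0.90 and from -1.12 to 0.92. Compared with day 10, CCL5 at day 30 was lower in cows 1 and 4 and higher in cows 2 and 3. The other CCL5 probes, A_73_P049591 and A_73_P107666, gave differences between -0.61 and 0.00, and none passed.

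**Figure D2:**
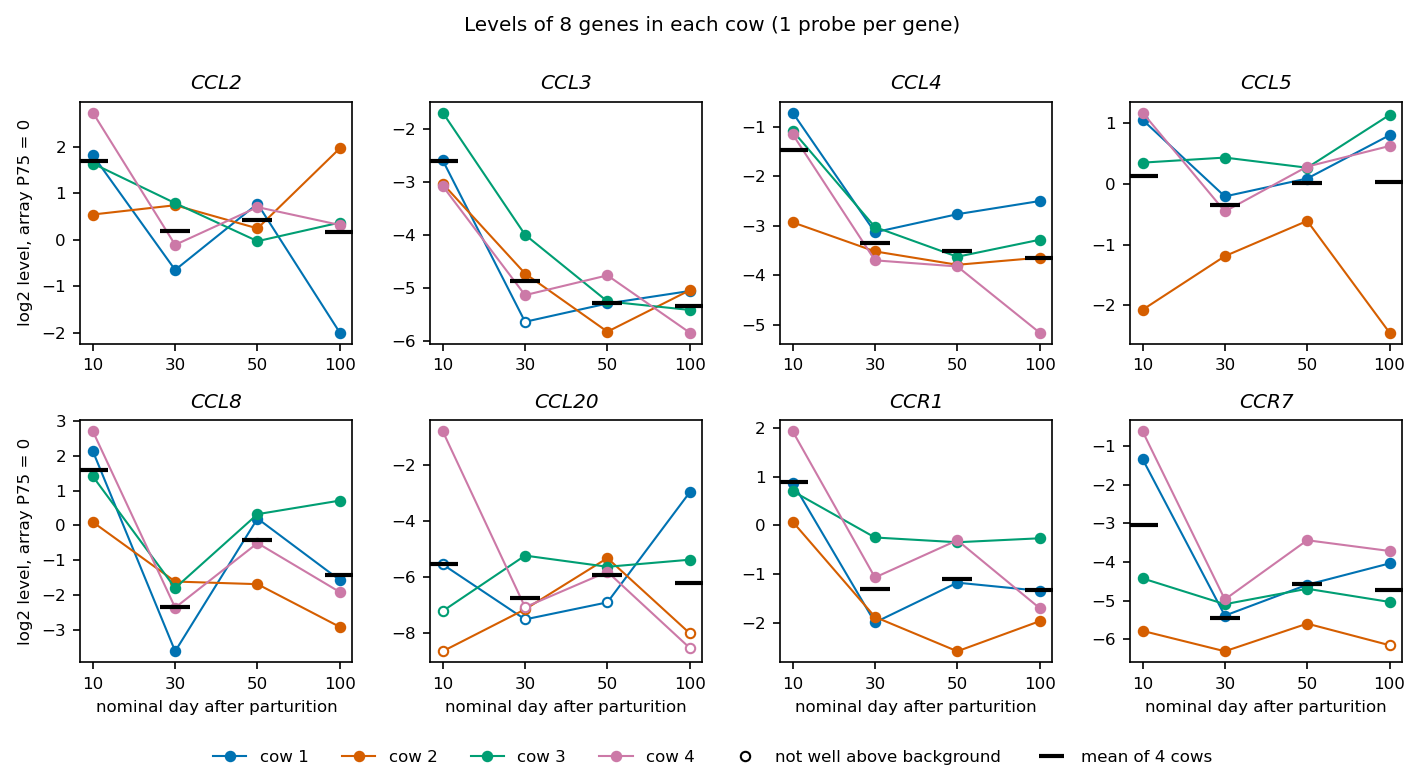
Log2 level of 8 genes in each cow at nominal days 10, 30, 50 and 100 (times equally spaced), with the percentile 75 of each array at 0 and a separate vertical scale per gene. Coloured lines are cows, open circles are spots not well above background, and black dashes are the means of 4 cows. CCL3 and CCR1 have all 4 day 10 points above every later point, CCL8 is lowest at day 30, and CCR7 is high at day 10 in cows 1 and 4.

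CCL20, or MIP-3 alpha, the ligand of CCR6, was above background on few arrays. The pair of probes below overlaps by 46 bases, of which 41 match and 5 differ. The capitals mark the bases that differ.
CCL20 A_73_P110576: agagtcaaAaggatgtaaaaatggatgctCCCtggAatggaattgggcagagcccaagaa
CCL20 A_73_P052371: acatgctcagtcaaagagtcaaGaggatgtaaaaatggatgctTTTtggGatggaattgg

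A_73_P110576 is listed at chr2:120594117-120594176, and the 60 bases of A_73_P052371 are spread over 922 bases, chr2:120593241-120594162. On A_73_P110576, levels at day 10 were -5.56, -8.67, -7.23 and -0.80 in cows 1 to 4, and only cow 4 was well above background. At day 100 they were -2.99, -8.03, -5.40 and -8.55, with cows 1 and 3 well above background, and across days 30 and 50 the range was -7.53 to -5.25, with 1 and 3 arrays well above background. Cow 4 at day 10 and cow 1 at day 100 were the high arrays. No difference from day 10 passed, the estimates being -1.19, -0.37 and -0.67, each ± 1.52 (SE, limma adjusted p 0.748, 0.926 and 0.806).

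The overlapping probe A_73_P052371 was well above background in cow 4 at day 10, at -3.89, and on no other array. In cow 1 at day 100, where A_73_P110576 stood at -2.99, it was at -8.69 and not well above background. The probes thus had the same high array at day 10 and differed in cow 1 at day 100, and over the 16 arrays, with cow means removed, their r was 0.64. Whether the 5 differing bases take part in this was not tested. The third probe, A_73_P120886, is listed at chr2:120591126-120591185 in the opposite direction, and cow 4 at day 10 was again its only array well above background, at -6.78. No fold is given for the 2 dim probes, since 3 of 4 arrays at day 10 and all later ones were at background.

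**Figure D3:**
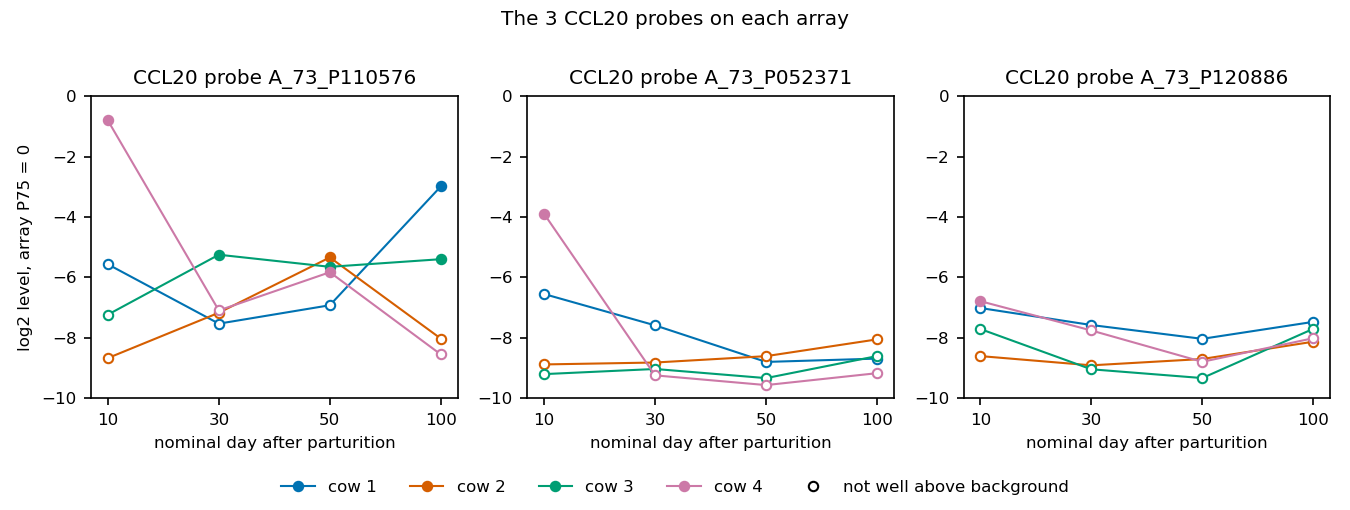
Log2 level of the 3 CCL20 probes on each array at nominal days 10, 30, 50 and 100 (times equally spaced), with the percentile 75 of each array at 0. Lines are cows and open circles are spots not well above background. Cow 4 at day 10 is well above background on each probe, and cow 1 at day 100 is at -2.99 on the left probe and at -8.69 on the middle one.

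Among the receptors, CCR1, which binds CCL3, CCL5 and CCL8, was lower at each later time. On probe A_73_110140 its levels were 0.88, 0.08, 0.70 and 1.93 in cows 1 to 4 at day 10 and -1.99, -1.88, -0.25 and -1.07 at day 30. At day 50 they were -1.17, -2.58, -0.34 and -0.30, and at day 100 they were -1.34, -1.96, -0.26 and -1.70. Every day 10 array was above every later array. The gap was narrow, since cow 2 at day 10 stood at 0.08 and cow 3 at day 30 at -0.25.

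Mean CCR1 went from 0.90 ± 0.77 at day 10 to -1.30 ± 0.81, -1.10 ± 1.06 and -1.32 ± 0.75 at days 30, 50 and 100 (SD, n = 4). Its differences from day 10 were -2.19, -1.997 and -2.21, each ± 0.39 (SE), or 4.57-fold, 3.99-fold and 4.63-fold lower, with limma adjusted p of 0.0425, 0.0362 and 0.0162 and a lower level in 4 of 4 cows each time. The other CCR1 probe, A_73_P102801, was well above background on 4, 1, 2 and 0 arrays at days 10, 30, 50 and 100. By this probe CCR1 was lower at day 100 by at least 3.49-fold. The measured means were -4.89 at day 10 and -8.09 at day 100, with a limma adjusted p of 0.0267. This bound holds only for the background correction used here, since with normexp correction, described below, the difference was 0.09. The probe entered the tests through day 10, where it was high, so its p values are only a description. At days 30 and 50 its differences of -2.93 and -2.21 did not pass (adjusted p 0.0890 and 0.115).

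CCR7, which binds CCL19 and CCL21, divided the cows at day 10. On probe A_73_P467773 levels there were -1.33, -5.79, -4.42 and -0.61 in cows 1 to 4, so cows 1 and 4 stood well above cows 2 and 3. Later levels were -5.39, -6.32, -5.10 and -4.97 at day 30, -4.59, -5.60, -4.69 and -3.44 at day 50, and -4.04, -6.16, -5.04 and -3.71 at day 100. The day 10 range contained all but 2 of the 12 later values. Differences from day 10 were -2.41, -1.54 and -1.70, each ± 0.60 (SE), in 4, 3 and 4 of 4 cows, and none passed (limma adjusted p 0.110, 0.201 and 0.112). The 95% intervals ran from -3.73 to -1.08, from -2.86 to -0.22 and from -3.02 to -0.38.

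The second CCR7 probe, A_73_113931, shares 40 bases with the first and is not an independent measure. It gave -2.92, -1.63 and -1.77, each ± 0.57 (SE), with adjusted p of 0.0566, 0.160 and 0.0886. It was well above background on 3, 1, 3 and 3 arrays at days 10, 30, 50 and 100, so its day 30 differences are taken against a group mostly at background. Without cow 3 at day 10 the day 30 difference of this probe was -3.44 and passed (adjusted p 0.0273), and with array weights the day 50 difference was -1.59 and passed (0.0447), in a fit whose weights did not converge. The remaining CCR7 probe, A_73_P102956, was well above background in cow 4 at day 10 alone, at -5.65. CCR2 has 1 probe, A_73_106028 at chr22:54404366-54404425, and it was not well above background on any of the 16 arrays, with levels between -9.15 and -6.84. Its level therefore has only an upper bound here.

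The list of other CC family genes held other CC chemokines, other CC receptors and atypical or decoy receptors, which bind chemokines without G protein signalling. Of 29 listed names, 3 are older names of other listed genes, and 21 genes had a named probe, with 38 probes of which 26 were tested. The number called by limma in the 6 comparisons was 0, and 7 probes, or 26.9%, had an unadjusted p below 0.05 in at least 1 of them, beside 42.3% of all tested probes. By each gene's probe of highest mean signal, 17 genes were tested, and their median differences from day 10 were -0.67, -0.47 and -0.88 at days 30, 50 and 100.

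The leukocyte marker lists did not all move alike. The macrophage list, with 16 of 16 genes having a probe and 13 well above background on all arrays, lay between 0.74 and 2.67 on the day 10 arrays, between -1.35 and 0.30 on those of day 30, between -1.62 and 0.97 on those of day 50, and between -1.34 and -0.04 on those of day 100. Of its 15 tested genes 8, 7 and 15 were called lower than at day 10 at days 30, 50 and 100, with medians of -2.35, -1.89 and -2.34. The scavenger receptor MARCO, not tested, was well above background on 2 day 10 arrays, 1 at day 30 and none later. The part of the macrophage markers in the CCL3, CCL4, CCL8 and CCR1 differences was not tested.

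The neutrophil list split the cows at day 10 as CCR7 did, with cows 1 and 4 at 4.56 and 5.42 and cows 2 and 3 at 0.62 and -0.17. Other lists divided these cows too. At day 10 the smooth muscle list stood at -1.54 and -1.66 in cows 1 and 4 against 1.74 and 1.47. The epithelial list stood at 0.71 and 0.74 against -2.70 and -0.88, and the T and NK cell list at 0.94 and 1.43 against -0.98 and -0.45. The endothelial list did not divide them, at 0.40 and 0.31 against -0.69 and 0.55. The neutrophil list had a named probe for 5 of 8 genes. Of its 4 tested genes only S100A12 was called, lower at day 50 (limma adjusted p 0.04975). Later the list spanned -1.82 to -0.48 (day 30), -1.75 to -1.05 (day 50) and -2.16 to a top value of 2 (day 100). Cow 1 was the highest at day 100, the array on which CCL20 probe A_73_P110576 was also high. The other CCL20 probes were not well above background on that array. CXCR1, a defining neutrophil receptor, was well above background on 2 arrays at day 10, 0 at days 30 and 50, and 1 at day 100.

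The dendritic cell list was also highest in cows 1 and 4 at day 10, at 1.81 and 1.09 against -0.36 and -0.28. It had a probe for 8 of 8 genes, and 5 were well above background on all arrays. Its defining genes XCR1 and ZBTB46 were not well above background on any array. Over its 6 tested genes the medians were -0.84, -0.72 and -0.96 from day 10 to days 30, 50 and 100. Only BATF3 was called, lower at each later time in 4 of 4 cows (limma adjusted p 0.0208, 0.0249 and 0.0109). The T and NK cell list spanned -0.98 to 1.43 on the day 10 arrays, -0.86 to 0.10 on those of day 30, -0.67 to 0.75 on those of day 50, and -1.12 to 0.48 on those of day 100, with cow 2 the lowest at each time. On CCL5 probe A_73_100958 cow 2 was also the lowest at each time, but on the other CCL5 probes cow 4 was the lowest at day 30 and cow 3 at day 50. The T and NK cell list had a probe for 14 of 14 genes, and 8 were well above background on all arrays. CD6 was not well above background on any array. Over its 13 tested genes the medians were -0.51, -0.16 and -0.27 at days 30, 50 and 100. At day 100 NKG7 (-2.08) and CD4 (-0.81) were called lower by limma and GZMB (2.26) higher, and 0 were called at days 30 and 50. The mast cell list went the other way, with medians of 0.90, 1.93 and 0.97 from day 10 to days 30, 50 and 100 over 5 tested genes, of which 0, 2 and 1 were called higher. The B and plasma cell list had medians of -0.14, -0.05 and 0.04 over 5 tested genes, with 0 called by limma in either direction. The part of these cell markers in the CCR7, CCL20 and CCL5 values was not tested.

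**Figure D4:**
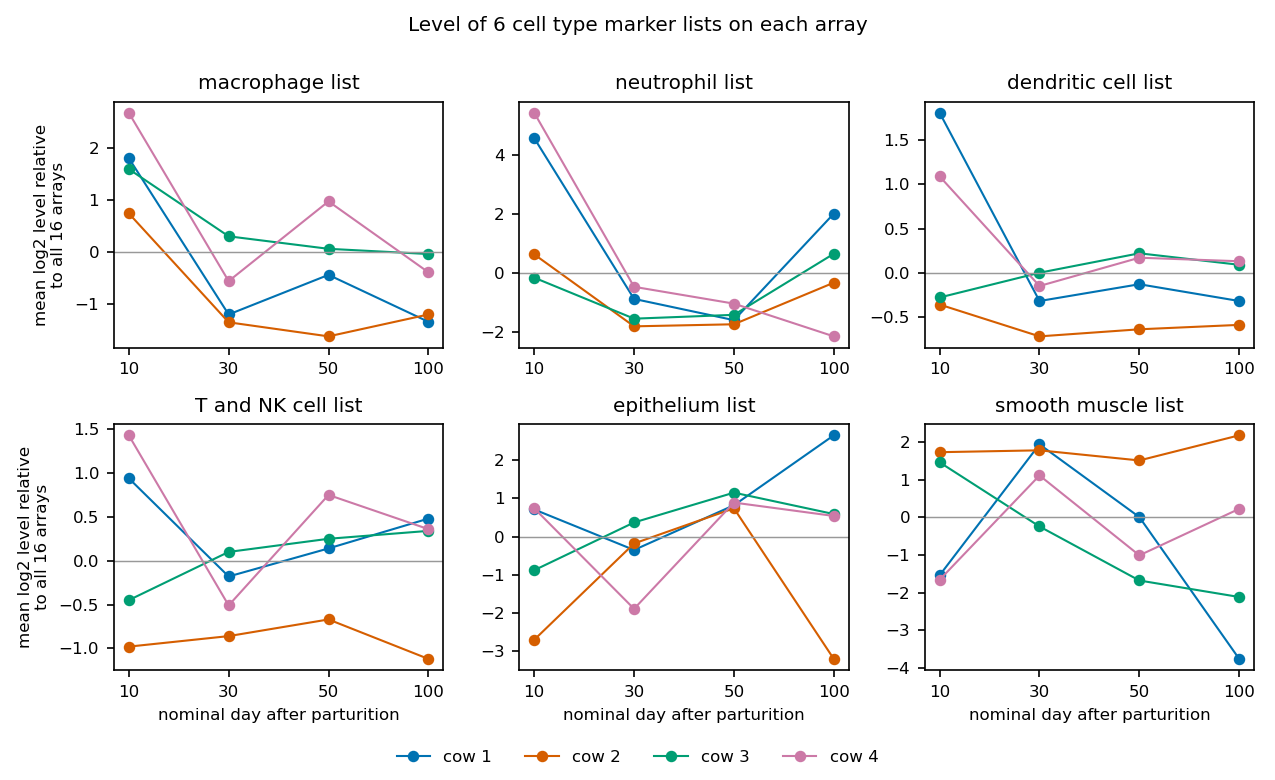
Level of 6 cell type marker lists on each array at nominal days 10, 30, 50 and 100 (times equally spaced), as the mean log2 level of the list's genes relative to all 16 arrays. Lines are cows, and each panel has its own vertical scale. The macrophage list is highest at day 10 in each cow, the neutrophil list stands at 4.56 in cow 1 and 5.42 in cow 4 at day 10, and cow 2 is lowest in the T and NK cell list at each time.

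The named genes with the most similar pattern were found for each gene by the correlation of levels over the 16 arrays after each cow's mean was removed, among 22602 probes of other named genes. The arrays share cows and slides, and the best of so many is high by selection, so r is a description only. CCR1 was most like P2RY13 (r = 0.98) and the macrophage marker CD68 (0.98), and CCL8 most like IL12A (0.93) and P2RY13 (0.93). CCL3 was most like PLD3 (0.97) and PMEL (0.95), and CCL4 most like PLAU (0.94) and TCN1 (0.93). CCL5 was most like CD96 (0.95) and XCL1 (0.93), CCL2 like TMEM61 (0.94) and GRAP (0.93), CCR7 like LYN (0.98) and UNC5B (0.97), and CCL20 like C16H1orf116 (0.90) and ARHGAP15 (0.88). Among the genes themselves, CCL3 and CCL4 had r = 0.90, CCL4 and CCR1 0.89, CCL3 and CCR1 0.87 and CCL8 and CCR1 0.86. CCL8 had 0.67 with CCL3 and 0.76 with CCL4. CCR7, which was not called, had 0.84 with CCL8 and 0.80 with CCR1. CCL5 had 0.07 with CCL3, 0.22 with CCR1 and 0.27 with CCL4, but 0.64 with CCL20, 0.62 with CCR7 and 0.49 with CCL8. Differences between times were not removed, so genes that were high at day 10 share that pattern in r.

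With 4 cows the calls rest on few arrays. Without cow 1 at day 10 the counts of called probes were 0, 0 and 2 at days 30, 50 and 100, against 5, 5 and 8 with all arrays. Without cow 4 at day 10 they were 1, 2 and 2. For day 30 the count was also 0 without cow 1 at day 30, 1 without cow 1 or cow 3 at day 50 or cow 4 at day 30, 2 without cow 3 at day 30 or cow 4 at day 50, and 3 without any 1 array of cow 2. For day 50 it was 0 without cow 2 at day 50, 1 without cow 1 or cow 3 at day 50, 2 without cow 4 at day 50, and 3 without cow 1 at day 30 or cow 3 at day 10, 30 or 100. For day 100 it was 5 without cow 3 at day 10 or day 100 and 4 without cow 4 at day 100. The F test count was 0 without cow 1 at day 10, 1 without cow 3 or cow 4 at day 10, and 6 without cow 2 at day 100. The day 100 calls of both CCL3 probes were kept without each of the 16 arrays in turn. A_73_P102451 entered the tests through day 10, and it stayed in each fit because the tested probes were fixed on all 16 arrays. Both calls were lost when all arrays of cow 1 were left out, and with the normexp correction described below. The call on A_73_119009 was also lost without all arrays of cow 3, and with only the arrays of the 2 times.

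The CCL3 and CCL4 differences, and that of the dim CCR1 probe, also depend on the background correction. With normexp correction, which models the background and adds 50 to the signal, both CCL3 calls at day 30 were lost, at -1.12 on A_73_119009 and -0.58 on A_73_P102451 (adjusted p 0.229 and 0.599, with ranges over all alternatives of 0.0191 to 0.321 and 0.00368 to 0.599). At day 50 CCL3 stood at -1.55 and passed on A_73_119009 (0.0337, range 0.00125 to 0.115) and at -0.80 on A_73_P102451 (0.297, range 0.00224 to 0.297). CCL4 at day 50 lost both calls, at -1.48 on A_73_106624 and -1.04 on A_73_P102796 (0.0599 and 0.143, ranges 0.00638 to 0.242 and 0.00568 to 0.237). CCL3 at day 100 differed from day 10 by -0.999 on A_73_119009 and -0.17 on A_73_P102451 (adjusted p 0.0799 and 0.768, with ranges over all alternatives of 0.00315 to 0.0934 and 0.00125 to 0.768). CCL4 at day 100 was then at -1.15 on A_73_106624 and -0.69 on A_73_P102796 (0.0783 and 0.198, ranges 0.0144 to 0.174 and 0.0119 to 0.198), and CCR1 on A_73_P102801 at 0.09 (0.881, range 0.0105 to 0.881). Under the same correction CCL8 on A_73_116397 stayed at -3.43 at day 30 and -2.50 at day 100 (0.0291 and 0.0218, ranges 0.0150 to 0.344 and 0.0204 to 0.171). CCR1 on A_73_110140 stayed at -2.05, -1.90 and -1.97 at days 30, 50 and 100 (0.0412, 0.0217 and 0.0107). Over all alternatives its adjusted p ranged from 0.0201 to 0.378, from 0.00407 to 0.2 and from 0.0107 to 0.152, so these calls too were lost in some.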

How the data were processed

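Per the labels, RNA of 16 endometrial biopsies was Cy3-labelled for one-colour Agilent arrays. The deposited intensity values were background-subtracted and detrended by Agilent Feature Extraction 11.5.1.1, per the file headers, whereas the submitters' processing notes name 10.5.1.1. The authors also deposited a log2 value table, used as an alternative, which matched the scanner values (r 0.9998 to 1) after removal of each probe's median, with column medians from -0.16 to 0.21. The deposited files also hold other columns of 0 and 1 that mark spots above background or flagged.

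Spots flagged nonuniform or as population outliers were left out, spots of a probe were averaged, and 33182 probes were tested in limma (version 3.58.1, R version 4.3.3). The model held time and cow, leaving 9 residual degrees of freedom. No spot was saturated. Precision is limited by how many arrays there are. Pairing is by animal, from the series' text. Deviations from time means had a median r of 0.12 within and -0.04 between cows. All probes of each gene are described, and every called gene of the other CC family list was to be named. The 2 most similar named genes per gene were taken by r among probes above background on at least 12 arrays. Genes and lists were chosen with earlier results of these data known. Scripts were tested on simulated data. Alternatives were normexp (offset 50), quantile normalization, the value table, filters, no cow term, array weights, nonuniform spots kept, 2 times alone, and omission of cows and arrays. Spread between cows includes slide and biopsy.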

Additional observations from a re-analysis of the deposited data

Results flagged for a closer look

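Of 64 groups of 4 arrays checked over the 16 tested probes, 1 held an array far from the others, and chance flags about 1 in 20 groups. CCL5 probe A_73_100958 stood at -2.45 in cow 2 at day 100, while the other 3 cows lay between 0.62 and 1.13, and the gap to the nearest was 0.857 of the whole range, past Dixon's 95% critical value for 4 samples. On the other CCL5 probes, A_73_P049591 and A_73_P107666, the same array was also the lowest, at -3.42 and -4.41. This array had the highest smooth muscle list of all 16, 2.19, the lowest epithelial list, -3.20, and the lowest T and NK cell list, -1.12, and their part was not tested.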

How the results depend on the processing

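Of the 18 called differences, refitted under up to 29 alternatives each (518 fits), 317 fits kept the call, 200 lost it with the same sign and 1 changed sign, CCR1 probe A_73_P102801 from day 10 to day 100 at 0.0912 with normexp correction. No spot of these genes was flagged, and the value table matched the scanner values. Calls kept with nonuniform spots or with the value table are therefore little of a test. The called member probes from day 10 to days 30, 50 and 100 numbered 5, 5 and 8, and 3, 2 and 3 with normexp correction. Without a filter on dim probes they were 3 and 3 at days 30 and 50, and with only the arrays of the 2 times 0, 3 and 1. Without the cow block, which pairs the arrays of an animal, they were 2 and 2 at days 30 and 50, and the day 100 count stayed within 1.5 times. The F test called 3, and 8 with array weights. With a cow or an array left out, the day 30 count was 0 to 5, that of day 50 was 0 to 5, that of day 100 was 0 to 8, the F test count was 0 to 6, and the count was 0 in the 3 later comparisons, where every alternative gave 0. Leaving out cow 1 gave 0 in each. Of the differences that were not called, 9 fits passed, on CCL4, CCR1, CCR7 and CCL2 probes. Over all probes, 1041 were called lower and 485 higher at day 100, but 548 and 1434 with normexp and 826 and 634 with quantile normalization, and at day 50 350 and 198, but 313 and 302 with normexp. Array weights gave 5247 calls at day 50 in place of 548, and 412 between days 30 and 50 in place of 0, but the estimation of the weights stopped before it converged, with the day 50 array of cow 1 weighted 7.9, so these counts, the F test count of 8 and other passes under array weights are not firm. Dim probes are limited by signal over background, as 6 of 22 probes could not be tested.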

Other observations

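CCL8 had its lowest mean at day 30, -2.35 on probe A_73_116397. It was higher at day 50 than at day 30 in 3 of 4 cows, by 3.82, 2.12 and 1.86 in cows 1, 3 and 4, and in cow 2 the difference was -0.08. The difference did not pass the test (limma adjusted p = 0.484). Cow 2 had the lowest day 10 level of CCL2, CCL4, CCL5, CCL8, CCR1 and CCR7 on the probes of highest mean signal, and cow 4 had the highest of CCL2, CCL5, CCL8, CCL20, CCR1 and CCR7. CCL20 was lowest in cow 2 too, at -8.67, but at day 10 only cow 4 was well above background on its probe.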
